A study of Mus musculus with 9 samples.

Results

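AICAR was added to mouse MA-10 Leydig cells that also received forskolin, and its effect was read as the difference from cells given forskolin alone. The 6 arrays of this comparison, 3 with forskolin and 3 with forskolin plus AICAR, were chosen by their titles from a series of 9, and the 3 control arrays were used here to estimate the spread. MA-10 is an established cell line derived from a mouse Leydig cell tumour, so all groups share 1 line, and the labels do not say whether the arrays came from separate cultures. If they did not, each p-value reflects spread that may be technical alone. Both groups received 10 µM forskolin, the AICAR group received 1 mM AICAR as well, and both were kept for 1.5 h in medium without serum. Control cells were labelled as untreated in their titles and as given DMSO in their treatment field. RNA was hybridised to Affymetrix whole-transcript arrays and deposited as log2 values, 1 for each transcript cluster (called probe here). Using 1 probe per gene, 19938 genes could be compared.

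Leydig cells make testosterone. Luteinizing hormone raises their cyclic AMP, which activates protein kinase A and a wave of gene transcription that includes Star, the carrier of cholesterol into mitochondria. Forskolin raises cyclic AMP directly by activating adenylyl cyclase. Cells take up AICAR and convert it to ZMP, a mimic of AMP that activates the energy sensor AMP-activated protein kinase (AMPK), and ZMP is also an intermediate of purine synthesis. The series was designed to read the effect of AMPK activation on the transcriptome, but neither AMPK activity nor energy charge is measured by these arrays.

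AICAR lowered many more genes than it raised. In limma's test 1017 genes (5.1%) were called at a Benjamini-Hochberg adjusted p under 0.05, taken over all 19938 genes. Of these, 822 genes (4.12%) were lower and 195 (0.978%) were higher. Changes of at least 1.5-fold were found in 128 genes lower (0.642%) and 4 genes higher (0.0201%). The median difference over all genes was 0.02 on the log2 scale, and 40.8% of genes had a negative difference, or 56.7% of those with a mean level of at least 7. The number of calls depended on single arrays: it was 3324 without AICAR replicate 1, of which 1677 were higher and 1647 lower, 528 without AICAR replicate 2, 643 and 575 without forskolin replicates 1 and 2, and 487 without forskolin replicate 3. The median of 1192 olfactory and vomeronasal receptor genes, taken relative to each gene's forskolin mean, was 0.01, 0.04 and 0.11 on AICAR replicates 1, 2 and 3. The interquartile range of the log2 values over all probes was 3.422 on AICAR replicate 1 and 3.416 to 3.46 on the forskolin arrays, but 3.349 and 3.341 on AICAR replicates 2 and 3, which lay below all other arrays of the series. The part of this narrower spread in the results was not tested. Each gene given below as rising or falling kept its call when any 1 of the 9 arrays was left out, unless the sentence says otherwise. Without any 1 array other than AICAR replicate 1, 62 to 133 genes were called higher, beside 195, and 425 to 667 lower, beside 822.

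The cells expressed their defining markers in both groups. Nr5a1, the master regulator of steroidogenic cells, read 11.77, 11.8 and 11.74 with forskolin and 11.77, 11.79 and 11.79 with AICAR (difference 0.01, adjusted p = 0.87). Cyp11a1, which makes pregnenolone from cholesterol, read 11.81, 11.84 and 11.79 against 11.76, 11.68 and 11.64 (difference −0.12, adjusted p = 0.14). Star itself read 10.55, 10.33 and 10.52 against 8.47, 8.38 and 8.4, with no overlap. Its difference of −2.05 (SE 0.06) was the largest of any called gene. Of 8 Leydig cell markers measured, 4 were called lower, Star among them, beside 4.12% of all genes. Scarb1, Fdx1 and Hsd3b1 were the others (differences −0.35, −0.34 and −0.59), and Hsd3b1 was near the threshold (adjusted p = 0.044). Whether the calls of Scarb1, Fdx1 and Hsd3b1 hold without single arrays is not given here. Nr5a1, Cyp11a1, Cyp17a1 and Gata4 were not called (differences 0.01, −0.12, −0.34 and 0.1). The summed log2 value of the 8 ran from 86.8 to 87.3 with forskolin and from 83 to 83.9 with AICAR. Star's difference of −2.05 is part of that sum. Of the markers of other testis cell types, 1 of 7 Sertoli and 1 of 6 macrophage genes were called lower and no germ cell, peritubular or endothelial gene was called. The summed Sertoli values overlapped between the groups, at 56.7 to 56.9 and 56.3 to 57.2, as did the macrophage values. The peritubular and fibroblast sum lay higher with AICAR, at 41 to 42.1 against 40.5 to 40.8. Its part in the results was not tested.

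**Figure D1:**
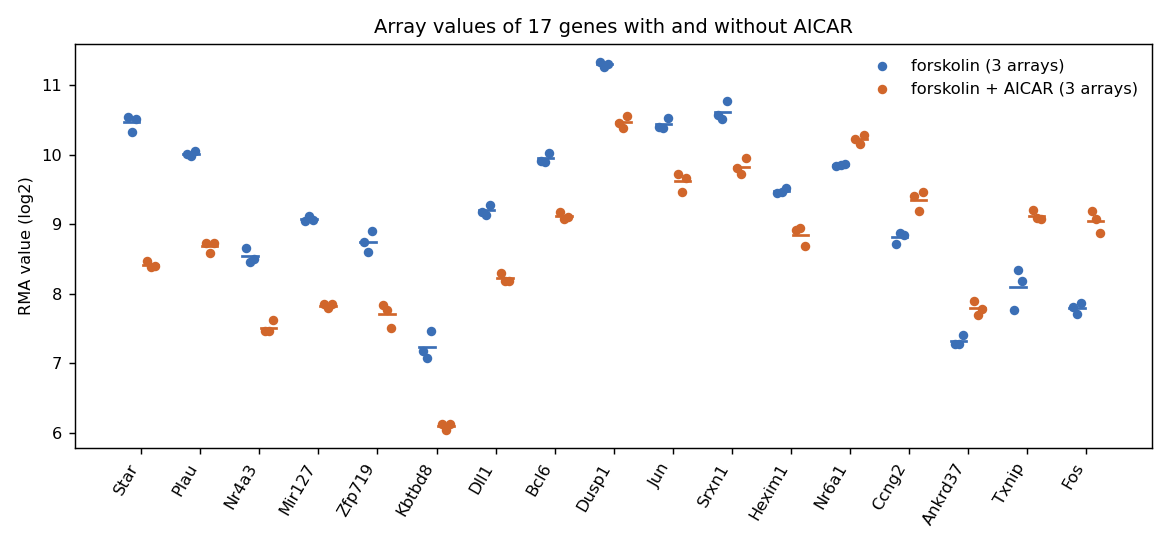
Log2 array values of 17 genes described in the text, with 1 point for each of the 3 forskolin arrays and the 3 forskolin plus AICAR arrays and a bar at each group's mean. The groups overlap for none of these genes; over all genes, every AICAR array lay below every forskolin array in 12.2% and above in 11.5%. Star shows the largest fall (−2.05) and Fos the largest rise (1.25).

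To see which functions changed, 84 gene classes were formed by symbol pattern or short list, with earlier results of these data known. They covered 9948 genes and 569 of the called ones, 469 lower and 100 higher, while 448 called genes lay in none. Of the classes, 19 had a share of lower genes at least 2 times the 4.12% found over all genes, 5 had no called member and 40 had no member called higher. A transcript's level bears on these shares, since genes called lower had a median level of 8.71 and genes not called one of 7.35. Among the 11381 genes with a mean of at least 7, 6.65% were called lower and 1.02% higher.

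**Figure D2:**
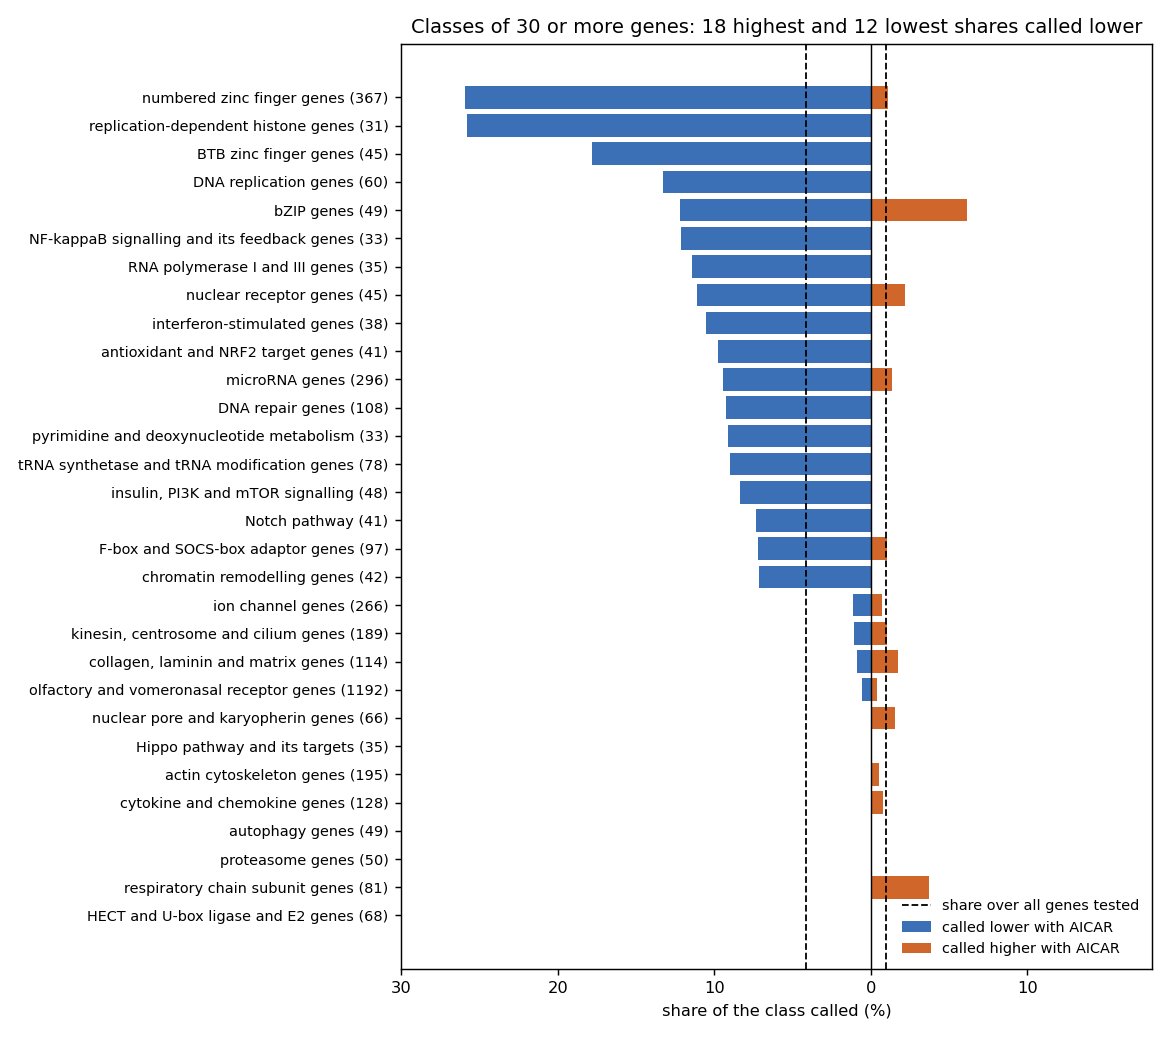
Share of each class called lower (bars to the left) or higher (bars to the right) with AICAR, in percent of its measured genes, whose number stands in parentheses. Of the classes with at least 30 genes, the 18 with the highest and the 12 with the lowest share called lower are shown. Dashed lines mark the shares over all 19938 genes, 4.12% lower and 0.978% higher. Numbered zinc finger genes (25.9% lower) and replication-dependent histone genes (25.8%) lie farthest to the left.

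The numbered zinc finger genes were the class with the most genes called lower. These genes, named Zfp, Zkscan or Zscan with a number, code mostly for DNA-binding proteins with arrays of C2H2 zinc fingers. Many carry a KRAB domain, which recruits the corepressor KAP1, and they silence retroelements and nearby genes. Of 367 measured, 95 were called lower (25.9%) and 4 higher (1.09%, at most 1 without any 1 array but AICAR replicate 1 and 18 without that one), beside 4.12% and 0.978% of all genes. The median difference of the 367 was −0.15, and 75.5% of them had a negative difference. They made up 1.84% of genes tested, 11.6% of genes called lower and 19.5% of those lowered at least 1.5-fold (25 of 128). The differences of the members called lower ran from −0.17 to −1.04, with a median of −0.45.

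Zfp719 fell most in this family. It read 8.75, 8.6 and 8.9 with forskolin and 7.84, 7.77 and 7.51 with AICAR, a 2.06-fold fall (difference −1.04, SE 0.1, adjusted p = 0.0005). Zfp518a, a gene for a large zinc finger protein, read 8.41, 8.55 and 8.76 against 7.89, 7.52 and 7.5 (difference −0.94, SE 0.12, adjusted p = 0.0025). Zfp40 read 7.98, 7.91 and 8.07 against 7.37, 7.07 and 6.84 (difference −0.9, SE 0.12, adjusted p = 0.0024). In all of these the highest AICAR array lay below the lowest forskolin array, as it did in 12.2% of all genes.

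Zinc finger genes were called lower more often than all genes in each of the level bands, by these counts. Between log2 values of 7 and 8, 30 of 96 were called lower (31.2%) beside 5.89% of all genes in that range. Between 8 and 9 it was 37 of 103 (35.9%) beside 10.4%, between 9 and 10 it was 7 of 47 (14.9%) beside 7.14%, and from 10 upward 6 of 20 (30%) beside 3.87%. Members that lie next to another numbered zinc finger gene in RefSeq's order of protein-coding genes were called lower in 58 of 194 cases (29.9%, median difference −0.23). Those without such a neighbour were called lower in 37 of 172 (21.5%, median −0.08). Whether these shares differ was not tested, and neighbouring zinc finger genes are often similar in sequence, so probes may share signal between them. The class count was 56 without forskolin replicate 3, 61 without AICAR replicate 2 and 157 without AICAR replicate 1, and 90 after quantile normalization. The class median relative to forskolin was −0.1, −0.16 and −0.17 on the AICAR arrays and between −0.02 and 0.04 on the forskolin arrays.

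**Figure D3:**
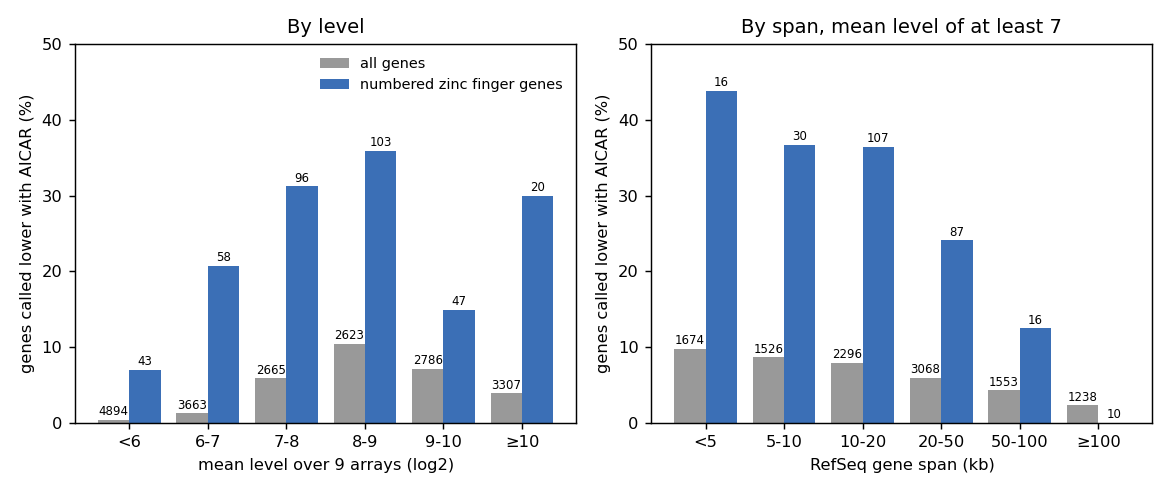
Percent of genes called lower with AICAR in bands of mean level over 9 arrays (left, log2) and, for genes with a mean level of at least 7, in bands of RefSeq gene span (right, kb). Grey bars are all genes, blue bars numbered zinc finger genes, and the number of genes stands above each bar. In the band from 8 to 9, 35.9% of zinc finger genes and 10.4% of all genes were called lower.

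Short genes were called lower more often than long ones. Among genes with a mean level of at least 7, the share called lower was 9.74% for RefSeq spans (introns included) under 5 kb, 7.93% for 10 to 20 kb, 4.31% for 50 to 100 kb and 2.34% from 100 kb upward. In these bands the median difference was 0, −0.02, −0.03 and 0.01, so genes under 5 kb were not shifted as a group. Called higher were 1.55%, 0.828%, 0.58% and 2.02% of their genes, beside 1.02% of all genes at that level. The median span was 13.4 kb for genes called lower, 21.4 kb for genes called higher and 21.8 kb for genes not called. Zinc finger genes of 10 to 20 kb were called lower in 39 of 107 cases (36.4%), beside 7.93% of all genes of that span. None of the 10 zinc finger genes of 100 kb or more was called.

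The BTB zinc finger genes, another family of repressors, were lower in 8 of 45 cases (17.8%) and higher in none. Their median difference was −0.1, and the share lower over all genes was 4.12%. Bcl6, a repressor best known from germinal centre B cells, read 9.91, 9.9 and 10.03 with forskolin and 9.17, 9.07 and 9.1 with AICAR. Its 1.78-fold fall (difference −0.83, SE 0.05, adjusted p = 2.7e-05) left the groups well apart. Zbtb26 fell by 0.48 on the log2 scale (SE 0.07, adjusted p = 0.0058). The class count was 5 without forskolin replicate 2, forskolin replicate 3 or AICAR replicate 2, and 13 without AICAR replicate 1.

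Other transcription factor families moved in part, and several had members on both sides. Among 49 bZIP genes, whose products pair through a leucine zipper and include the AP-1 and CREB families, 6 were lower (12.2%) and 3 higher (6.12%). The shares over all genes were 4.12% and 0.978%. Jun and Fos, partners in AP-1, went opposite ways. Jun read 10.4, 10.39 and 10.53 against 9.73, 9.47 and 9.67 (difference −0.81, SE 0.07, adjusted p = 0.00037). Fos read 7.81, 7.71 and 7.87 against 9.19, 9.07 and 8.88 (difference 1.25, SE 0.09, adjusted p = 0.0001). Fosl2 fell by 0.33 on the log2 scale (adjusted p = 0.002), and Ddit3, the stress factor CHOP, fell by 0.53 (adjusted p = 0.0047). For Jun every AICAR array lay below every forskolin array, as in 12.2% of all genes. For Fos every one lay above, as in 11.5%. The count of bZIP genes called higher was 1 without forskolin replicate 1 or 2 or AICAR replicate 2 or 3.

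The promoters of Fos and Jun are printed because these partners moved in opposite directions. Each runs from 250 bases before to 50 after a start site in RefSeq (GRCm38.p6). Capitals mark any match, on either strand, to the CRE (TGACGTCA), its short core (TGACG, which lies in every CRE), the AP-1 site (TGAGTCA), the E-box (CACGTG), the TATA box (TATAAA) or CCAAT. Fos lies on the plus strand at chr12:85473640-85473939 and Jun on the minus strand at chr4:95052173-95052472.
Fos: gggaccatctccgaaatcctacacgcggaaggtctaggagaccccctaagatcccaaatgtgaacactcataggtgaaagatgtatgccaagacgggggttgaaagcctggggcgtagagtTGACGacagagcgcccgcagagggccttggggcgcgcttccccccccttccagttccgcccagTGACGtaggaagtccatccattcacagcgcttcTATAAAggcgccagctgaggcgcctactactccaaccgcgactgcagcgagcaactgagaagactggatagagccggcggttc
Jun: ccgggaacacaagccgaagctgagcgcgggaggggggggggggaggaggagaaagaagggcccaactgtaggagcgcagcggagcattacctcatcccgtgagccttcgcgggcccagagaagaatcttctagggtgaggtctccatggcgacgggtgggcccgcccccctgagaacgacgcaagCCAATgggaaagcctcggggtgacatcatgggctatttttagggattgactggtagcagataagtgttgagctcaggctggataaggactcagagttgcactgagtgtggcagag
The Fos window holds 2 short cores and a TATA box, and the Jun window holds 1 CCAAT. Over windows of genes with a mean level of at least 7, the short core stood in 30.8%, TATAAA in 6.78% and CCAAT in 37.3%. In windows of genes called lower, the short core stood in 29.7%, TATAAA in 7.87%, CCAAT in 39.9%, the E-box in 10.6% (10% of all these windows) and the complete CRE in 4.2% (3.01%). In windows of genes called higher, TATAAA stood in 12.7% and the E-box in 5.08% of 118 windows. Windows of the zinc finger genes called lower held a median of 14 CpG dinucleotides, beside 16 in windows of all zinc finger genes at that level and 21 over all windows there. A match describes letters only.

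Among 45 nuclear receptor genes, 5 were lower (11.1%) and 1 higher (2.22%, or 6 higher without AICAR replicate 1). Over all genes these shares were 4.12% and 0.978%. Nr4a3, an orphan receptor induced early by cyclic AMP, read 8.66, 8.45 and 8.5 against 7.46, 7.46 and 7.62, a 2.03-fold fall (adjusted p = 7.8e-05). Its relative Nr4a1 fell by 0.46 on the log2 scale from a much brighter probe. Nr1h4, the bile acid receptor FXR, fell by 0.49 (adjusted p = 0.0035). Nr6a1, a germ cell nuclear factor, rose from 9.84, 9.85 and 9.86 to 10.23, 10.15 and 10.29 (difference 0.37, SE 0.04, adjusted p = 0.0016).

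Krüppel-like factors were also divided. Klf4 fell by 0.79 on the log2 scale (SE 0.09, adjusted p = 0.0011) and Klf3 by 0.42, whereas Klf11 rose by 0.28 (SE 0.04, adjusted p = 0.0063). Klf11 was the only one called higher without any 1 forskolin array or AICAR replicate 3. With 2 called each way, the 29 genes of the KLF, SP and EGR families had 6.9% lower and 6.9% higher. All genes had 4.12% lower and 0.978% higher. Of 148 homeobox genes 10 were lower (6.76%) and 4 higher, or 40 higher without AICAR replicate 1, 2 without control replicate 3 and 0 without any of control replicates 1 and 2, forskolin replicates 2 and 3 and AICAR replicates 2 and 3. Zeb2, a repressor of epithelial genes, fell by 0.44, and Gsx2 by 0.59. The homeobox count lower was 4 without forskolin replicate 3 or AICAR replicate 2 and 6 without forskolin replicate 1. Sox9, which drives Sertoli cell fate in the embryonic testis, read 9.71, 9.83 and 9.81 against 9.38, 9.31 and 9.28 (difference −0.46, SE 0.05, adjusted p = 0.0013). Sox18 fell by 0.59 and was the only other called member of 20 Sox genes, of which 5 were called higher without AICAR replicate 1.

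Chromatin genes fell in small numbers. Cbx2, a Polycomb protein needed for male gonad development, read 9.71, 9.85 and 9.79 against 9.19, 9.11 and 9.08 (difference −0.66, SE 0.05, adjusted p = 0.00012). The deacetylase gene Sirt1 fell by 0.39, and Ing5, Brpf3 and Brd2, whose products read or help write histone acetylation, fell by 0.39, 0.36 and 0.26. Jarid2, a partner of Polycomb complex PRC2, rose by 0.2 (SE 0.03, adjusted p = 0.0091). Histone methylation genes had 4 of 94 lower (4.26%), acetylation genes 4 of 60 (6.67%) and Polycomb and DNA methylation genes 3 of 43 (6.98%), beside 4.12% of all genes. Among members with a mean level of at least 7 the shares were 5%, 6.9% and 7.69%, near the 6.65% of all such genes. The methylation count was 0 without any 1 forskolin array or AICAR replicate 2, 1 without control replicate 1 or AICAR replicate 3, 2 without control replicate 3 and 14 without AICAR replicate 1. The acetylation and Polycomb counts were 7 and 5 without AICAR replicate 1, and the Polycomb count was 1 without AICAR replicate 2. Replication-dependent histone genes, which are expressed in S phase, were lower in 8 of 31 cases (25.8%) and higher in none, and 93.5% had a negative difference. Their median on the AICAR arrays was −0.11, −0.1 and −0.3 relative to forskolin, so that AICAR replicate 3 lay lowest. The histone count was 4 without forskolin replicate 1 or 3, 5 without control replicate 2 or AICAR replicate 3 and 14 without AICAR replicate 1, and near-identical histone copies may share probes.

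**Figure D4:**
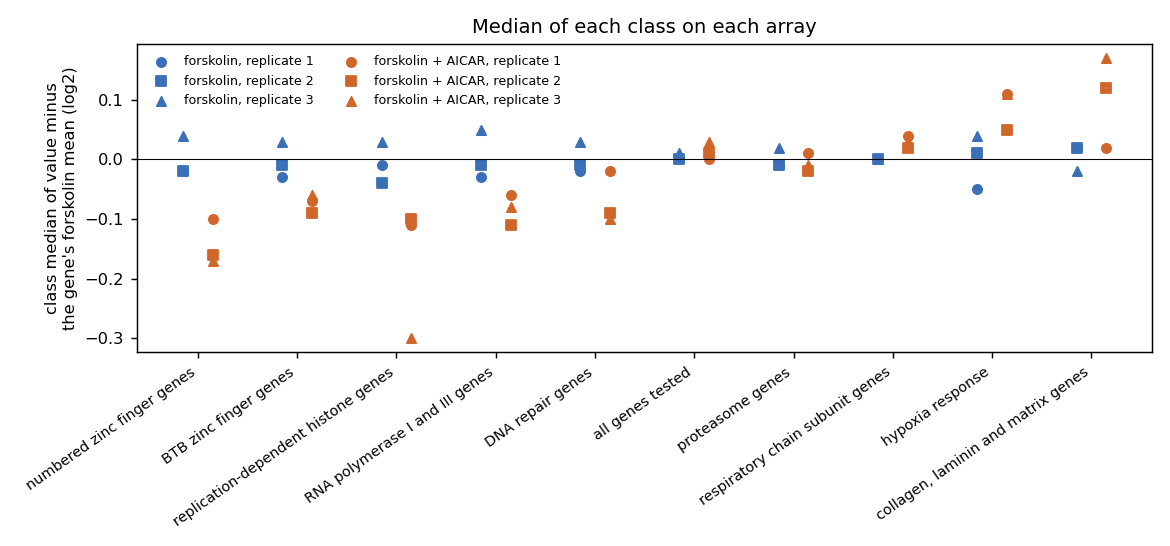
Median, for 10 gene sets on each of the 6 arrays, of the log2 value minus the gene's mean over the forskolin arrays. Blue marks are forskolin arrays, orange marks forskolin plus AICAR arrays, and the shape gives the replicate number. The zinc finger genes lie at −0.1 to −0.17 on the AICAR arrays, and the matrix genes at 0.02 on AICAR replicate 1 but 0.12 and 0.17 on the other two.

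Of 133 RNA polymerase II, Mediator and elongation genes 8 were lower (6.02%) and 1 higher. At a mean level of at least 7 the share lower was 6.3%, beside 6.65% of all such genes. The count lower was 3 without forskolin replicate 3 or AICAR replicate 2, 4 or 5 without any other array but AICAR replicate 1, and 17 without that one. P-TEFb, a kinase with cyclin T, releases paused polymerase, and the 7SK particle with HEXIM proteins holds it inactive. Hexim1 read 9.45, 9.47 and 9.52 against 8.92, 8.94 and 8.69, a 1.54-fold fall (adjusted p = 0.00084). Mepce, which caps 7SK RNA and was picked after its value was seen, read 9.68, 9.67 and 9.76 against 9.13, 9.08 and 8.88 (difference −0.67, SE 0.06, adjusted p = 0.0005). Cdk12, a kinase of elongating polymerase, fell by 0.51 (SE 0.07, adjusted p = 0.0031). Ccnt2, a cyclin of P-TEFb, rose from 10.02, 10.01 and 10.11 to 10.57, 10.5 and 10.29 (difference 0.41, SE 0.07, adjusted p = 0.0078).

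RNA polymerase I and III genes had 4 of 35 lower (11.4%), and 85.7% had a negative difference, beside 56.7% of all genes with a mean level of at least 7, where all 35 lie. Of all genes at that level 6.65% were called lower. Taf1a, a subunit of the selectivity factor for ribosomal RNA genes, fell by 0.41 (SE 0.05, adjusted p = 0.0022). Ribosome biogenesis genes had 6 of 100 lower (6%), a median of −0.08 and 81% negative, also all at that level. Both counts rested on single arrays: the polymerase count was 1 without forskolin replicate 3 or AICAR replicate 2, 2 without control replicate 2 or forskolin replicate 1 or 2, and 11 without AICAR replicate 1. The biogenesis count was 22 without AICAR replicate 1, 0 without AICAR replicate 2, and 1 or 2 without any other array. Of 61 genes for cytosolic ribosomal proteins 1 was called. That gene, Rpl12, read 9.8, 9.68 and 9.73 against 9.37, 9.24 and 9.2 (difference −0.47, SE 0.06, adjusted p = 0.0018). Of 70 translation factor genes 2 were lower, Eif5 with a fall of 0.25 and a member lost without any 1 forskolin array or AICAR replicate 2 or 3, and 10 were lower without AICAR replicate 1. The tRNA synthetase and modification genes had 7 of 78 lower (8.97%), with Pus7l, a pseudouridine synthase, down by 0.56 and Pars2, a mitochondrial synthetase, by 0.43. That count was 2 without forskolin replicate 3, 4 without forskolin replicate 1 or AICAR replicate 2 and 12 without AICAR replicate 1. For tRNA genes of this class with a mean level of at least 7 the share lower was 8.11%.

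RNA decay, deadenylation and microRNA machinery genes had 6 of 101 lower (5.94%) and 1 higher, the latter lost without any of the control arrays, forskolin replicate 1 or 2 or AICAR replicate 2. At a mean level of at least 7 the share lower was 6.74%, beside 6.65% of all such genes. Btg2, Btg1 and Tob1 code for related proteins that recruit the CCR4-NOT deadenylase. Btg2 read 7.7, 7.7 and 7.72 against 7.17, 7.19 and 7.23 (difference −0.51, SE 0.03, adjusted p = 9.3e-05), Btg1 fell by 0.48 and Tob1 by 0.36. Zfp36l2, which binds AU-rich elements, fell by 0.5 (SE 0.04, adjusted p = 0.00043). The arrays do not overlap for any of these 4, and every AICAR array lay below every forskolin array in 12.2% of all genes. Splicing factor genes were among the few classes with more members higher (5 of 138, 3.62%) than lower (3, 2.17%). Over all genes 0.978% were higher and 4.12% lower, and the median difference of the splicing class was 0.01. Rbm33 rose by 0.27 and Rbfox2 by 0.26, while Rbm47 fell by 0.28 and was the only one lower without any 1 array but AICAR replicate 1. The count higher was 2 without forskolin replicate 3 and 3 without forskolin replicate 1 or 2 or AICAR replicate 2. Without AICAR replicate 1 the splicing class had 13 higher and 10 lower.

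Of the microRNA genes called lower, 17 of 28 lay at 1 imprinted locus. A value here is the signal of probes at the microRNA gene, from total RNA, so precursor and host transcripts are not told apart from the mature microRNA. Of 296 microRNA genes 28 were lower (9.46%) and 4 higher (1.35%), beside 4.12% and 0.978% of all genes. Between Meg3 and Mirg on chromosome 12, 17 of 40 were lower (42.5%, median −0.36) and 37 had a negative difference. Genes of this locus may share a host transcript, so these counts need not be independent observations. Elsewhere 11 of 256 were lower (4.3%, median 0.04), a share near that of all genes. Without AICAR replicate 1 the total was 45 lower and 30 higher, and the count higher was 1 without forskolin replicate 2 and 2 without forskolin replicate 3 or AICAR replicate 2. Mature sequences of the most changed genes, from RefSeq (GRCm38.p6), are given to show which seeds (bases 2 to 8, in capitals) are concerned.
miR-379-3p: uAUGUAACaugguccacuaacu
miR-379-5p: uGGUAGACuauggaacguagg
miR-380-3p: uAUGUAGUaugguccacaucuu
miR-380-5p: aUGGUUGAccauagaacaugcg
miR-127-3p: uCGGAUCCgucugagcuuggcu
miR-127-5p: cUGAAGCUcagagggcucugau
miR-329-3p: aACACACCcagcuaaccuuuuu
miR-329-5p: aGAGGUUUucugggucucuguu
miR-99a-3p: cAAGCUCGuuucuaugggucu
miR-99a-5p: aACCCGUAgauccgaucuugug
No seed is shared by any of these. Mir127 read 9.05, 9.12 and 9.06 against 7.85, 7.79 and 7.85 (difference −1.25, SE 0.05, adjusted p = 5e-06). Mir379 read 5.88, 6.22 and 6.51 against 5.33, 4.7 and 4.6 and Mir380 read 8.57, 8.53 and 8.6 against 7.85, 7.19 and 6.87. For both, AICAR replicate 1 fell least. Mir329 fell by 0.99, Mir323 by 0.96, Mir136 and Mir665 by 0.93 each. Mir99a, on chromosome 16 and outside that locus, rose from 7.05, 7.12 and 7.32 to 8.28, 8.02 and 8.03 (difference 0.94, SE 0.09, adjusted p = 0.00047).

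Signalling classes held few called genes each. Dusp1, a phosphatase that switches off MAP kinases, read 11.33, 11.27 and 11.3 against 10.45, 10.39 and 10.56 (difference −0.83, SE 0.05, adjusted p = 7.5e-05). Errfi1, an inhibitor of the EGF receptor, fell by 0.57 (SE 0.04, adjusted p = 0.00021) and Spry3 belongs to a family that restrains receptor tyrosine kinases (difference −0.67, SE 0.08, adjusted p = 0.0019). The ligands Pdgfb and Fgf18 fell by 0.71 and 0.46. Even so, growth factor and receptor tyrosine kinase genes had 4 of 114 lower (3.51%) and 2 higher, beside 4.12% and 0.978% of all genes. The count higher was 22 without AICAR replicate 1 and 1 without any other array but forskolin replicate 2. Osmr, a receptor subunit for oncostatin M, read 7.52, 7.52 and 7.87 against 6.78, 6.71 and 6.9 (difference −0.84, SE 0.09, adjusted p = 0.001).

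Developmental pathways also held few called genes. With a mean level of at least 7, 6.06% of Notch, 9.84% of Wnt and 20% of Hedgehog genes were lower, beside 6.65% of all such genes. The Notch ligand Dll1 read 9.18, 9.14 and 9.28 against 8.3, 8.18 and 8.19, a 1.96-fold fall (adjusted p = 2e-05), and Nrarp, a feedback inhibitor of Notch, fell by 0.33. They were among 3 of 41 Notch pathway genes called lower (7.32%), or 5 without AICAR replicate 3. The Wnt receptors Fzd4 and Fzd7 fell by 0.44 and 0.29 among 6 of 90 Wnt genes lower (6.67%), a count that was 3 without forskolin replicate 2 and 2 without forskolin replicate 3 or AICAR replicate 2. In the Hedgehog pathway 3 of 21 were lower (14.3%). Boc, a coreceptor, fell by 0.41 (SE 0.04, adjusted p = 0.0011) and Gpr161, which restrains the pathway at the cilium through cyclic AMP, by 0.38. None of 35 Hippo pathway genes was called, but 4 were called higher without AICAR replicate 1.

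Insulin and mTOR signalling genes were lower in 4 of 48 cases (8.33%) and higher in none. Among members with a mean level of at least 7 the share lower was 9.76%, beside 6.65% of all such genes. Irs1, the adaptor of the insulin receptor, read 8.66, 8.66 and 8.79 against 8.25, 8.03 and 8.25 (difference −0.52, SE 0.07, adjusted p = 0.0021). Mlst8, a subunit of both mTOR complexes, fell by 0.49 (SE 0.06, adjusted p = 0.0022), and the kinase gene Sgk1 by 0.61 (SE 0.07, adjusted p = 0.0016). The groups did not overlap for these 3, and all AICAR arrays lay below all forskolin arrays in 12.2% of all genes. The class count was 8 without AICAR replicate 1. Of 30 genes of AMPK and related kinases 2 were lower and 1 higher, and none without any 1 forskolin array or AICAR replicate 3. The catalytic subunit gene Prkaa1 read 11.38, 11.33 and 11.42 against 11.25, 11.1 and 11.07 (difference −0.24, adjusted p = 0.034), a call lost when any array but AICAR replicate 1 was left out (adjusted p up to 0.12).

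Antioxidant genes had 4 of 41 lower (9.76%), none higher and a median of −0.06. The share lower was 10% at a mean level of at least 7, beside 6.65% of all such genes. Srxn1, which repairs peroxiredoxins, read 10.57, 10.51 and 10.78 against 9.81, 9.72 and 9.95 (difference −0.8, SE 0.08, adjusted p = 0.00056). Osgin1, induced by oxidative stress, fell by 0.57 (SE 0.08, adjusted p = 0.0035). Slc7a11, the cystine importer, and Gclc, which starts glutathione synthesis, were lower by 0.53 and 0.34, and both calls were lost without forskolin replicate 3 (adjusted p = 0.06 and 0.057), which left 2 in the class.

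DNA repair genes were lower in 10 of 108 cases (9.26%) and DNA replication genes in 8 of 60 (13.3%), with none higher in either. With a mean level of at least 7 the shares lower were 9.71% and 13.3%, beside 6.65% of all such genes. Negative differences made up 74.1% of all repair and 71.7% of all replication genes, beside 56.7% of all genes with a mean level of at least 7. Dclre1b, the telomere nuclease Apollo, read 10.18, 10.18 and 10.18 against 9.74, 9.8 and 9.78 (difference −0.41, SE 0.04, adjusted p = 0.00035). Brca2 fell by 0.37 and the checkpoint gene Rad9a by 0.35. Orc1, a subunit of the origin recognition complex, read 7.7, 7.75 and 7.92 against 7.29, 7.16 and 7.06 (difference −0.62, SE 0.07, adjusted p = 0.0016). Orc1 aside, the replication calls were fragile: 1 was left without any 1 forskolin array, 2 without AICAR replicate 2 or 3 or control replicate 2, 3 and 4 without control replicates 3 and 1, and 18 stood without AICAR replicate 1. The repair count was 30 without AICAR replicate 1. Cyclin and cyclin-dependent kinase genes had 4 of 64 higher (6.25%, beside 0.978% of all genes), 1 lower and a median of 0.01. Without AICAR replicate 1 the class had 6 higher and 9 lower, without forskolin replicate 2 it had 2 each way, without forskolin replicate 1 it had 2 higher, and without forskolin replicate 3 it had 2 lower. Ccng2, an unconventional cyclin tied to cell cycle arrest, rose from 8.71, 8.87 and 8.85 to 9.41, 9.19 and 9.46 (difference 0.55, SE 0.08, adjusted p = 0.0033). The apoptosis class had 2 of 37 higher and 2 lower (5.41% each), beside 0.978% and 4.12% of all genes. Its count lower was 5 without AICAR replicate 1. The inhibitor Birc5 rose by 0.24 and the BH3-only gene Bcl2l11 fell by 0.35. The caspase gene Casp6 rose by 0.2, a call lost without any array but AICAR replicates 1 and 2. Bik fell by 0.31, a call lost without forskolin replicate 1 or 3 or AICAR replicate 2.

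The hypoxia response had the highest share of raised genes, 6 of 40 (15%) beside 0.978% of all genes, with 2 lower (4 without AICAR replicate 1) and a median of 0.08. The count higher was 4 to 7 when any 1 array was left out, 5 with the 2 groups alone and 12 after quantile normalization. Its list was chosen with earlier results of these data known, so the share is descriptive only. Ankrd37, a HIF target, rose from 7.28, 7.27 and 7.4 to 7.9, 7.69 and 7.78 (difference 0.47, SE 0.06, adjusted p = 0.0024). Adm, the vasodilator adrenomedullin, rose from 6.1, 6.33 and 6.1 to 6.7, 6.75 and 6.59 (difference 0.5, SE 0.08, adjusted p = 0.0063). Pfkfb3, which makes the activator of phosphofructokinase, instead fell from 8.71, 8.8 and 8.86 to 8.37, 8.33 and 8.21 (difference −0.49, SE 0.05, adjusted p = 0.0011). Outside the class, Ak4, a mitochondrial adenylate kinase, rose by 0.44 (SE 0.06, adjusted p = 0.0031) and Txnip, an inhibitor of glucose uptake, rose from 7.77, 8.34 and 8.19 to 9.21, 9.09 and 9.07. Oga, which removes O-GlcNAc from proteins, rose by 0.45 (SE 0.05, adjusted p = 0.0017). Respiratory chain genes had 3 of 81 higher (6 without AICAR replicate 1) and none lower, all with differences of at most 0.22 and all lost without forskolin replicate 2 or 3.

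Genes for the surface and for transport moved modestly. St3gal1, a sialyltransferase, fell by 0.61 (SE 0.05, adjusted p = 0.00033) on its brightest probe, though its probes disagreed. B3galt6, B4galt5 and Chst14 fell by 0.6, 0.54 and 0.5 among 11 of 171 glycosyltransferase and sulfotransferase genes called lower (6.43%). Another 4 were higher (2.34%), and all genes had 4.12% lower and 0.978% higher. The count lower was 7 without forskolin replicate 2 or 3 and 17 without AICAR replicate 1. The count higher was 1 or 2 without any 1 array but control replicate 3 and AICAR replicate 1, and 13 without the latter. For members with a mean level of at least 7 the share lower was 12.6%, beside 6.65% of all such genes. Slc20a1, a phosphate importer, read 9.93, 9.94 and 9.93 against 9.42, 9.33 and 9.48, and Slc22a5, the carnitine importer, fell by 0.42. The class of plasma membrane and other Slc genes had 18 of 333 lower (5.41%) and 7 higher (2.1%). Its count lower was 8 or 9 without any 1 forskolin array or AICAR replicate 2. Its count higher was 2 to 4 without any 1 array but control replicate 1 and AICAR replicate 1, and 44 without the latter. Both mitochondrial carriers Slc25a35 and Slc25a25, the latter an ATP-Mg and phosphate exchanger, fell by 0.64 and 0.45. Plau, the urokinase gene, read 10.01, 9.98 and 10.06 against 8.73, 8.59 and 8.73. Prss35, a serine protease gene expressed in gonads, fell by 0.77. Matrix protease and inhibitor genes as a class had 4 of 232 lower (1.72%, or 9 genes without AICAR replicate 1), beside 4.12% of all genes. At a mean level of at least 7 the class share lower was 6.56%, near the 6.65% of all such genes.

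Among protein turnover genes, several substrate adaptors fell. Kbtbd8, an adaptor of the CUL3 ubiquitin ligase, read 7.17, 7.07 and 7.47 against 6.12, 6.04 and 6.12, a 2.21-fold fall (adjusted p = 0.00033). The related Kbtbd6 and Kbtbd7, which act together on CUL3, fell by 0.72 and 0.66, and Btbd19 by 0.69. The kelch and BTB adaptor class had 6 of 104 lower (5.77%) and 3 higher, with a median difference of 0.02. Among members with a mean level of at least 7 the share lower was 6.94%, near the 6.65% of all such genes. The class had 15 lower and 13 higher without AICAR replicate 1, and at most 1 higher without any other array. Usp2, a deubiquitinase gene with a circadian rhythm, read 10.13, 10.04 and 10.08 against 9.36, 9.44 and 9.6. No member was called among 50 proteasome genes, 68 HECT ligase, U-box ligase and E2 genes and 49 autophagy genes, although 3, 8 and 2 of them were called lower without AICAR replicate 1. The proteasome gene with the smallest p, Psma4, differed by −0.2 (adjusted p = 0.13), and in the autophagy class Bnip3 differed by 0.2 (adjusted p = 0.099).

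**Figure D5:**
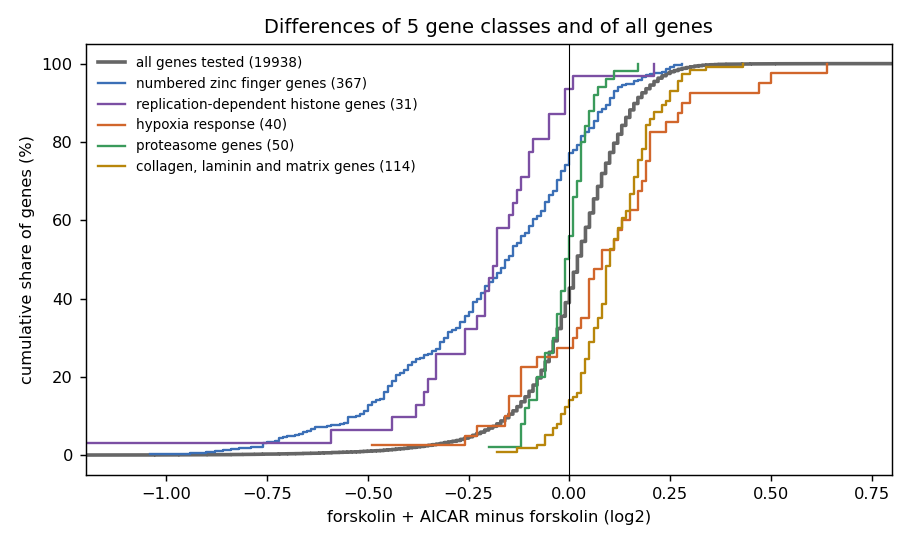
Cumulative percent of genes (vertical axis) by their difference, forskolin plus AICAR minus forskolin, on the log2 scale (horizontal axis), for all genes tested and 5 classes, with the number of genes in each. The zinc finger curve (median −0.15) and the histone curve (median −0.18) lie to the left of all genes (0.02), and the hypoxia (0.08) and matrix (0.1) curves to the right.

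Structural genes were seldom called. Of 195 actin cytoskeleton genes 1 was higher (0.513%) and none lower. That count higher was 13 without AICAR replicate 1 and 0 without AICAR replicate 2. Of 114 collagen, laminin and matrix genes 2 were higher (1.75%) and 1 lower (0.877%). Over all genes 0.978% were higher and 4.12% lower. The matrix count higher was 0 without forskolin replicate 2 or AICAR replicate 2 or 3, and 1 without forskolin replicate 1 or 3. The matrix gene called lower was lost without any array but AICAR replicate 1. The matrix genes still had a median of 0.1 and 12.3% negative differences, beside 0.02 and 40.8% over all genes. However, their median on AICAR replicate 1 was 0.02, beside 0.12 and 0.17 on AICAR replicates 2 and 3. Without AICAR replicate 1, 29 matrix genes were called higher. A similar split by array was seen for ion channels, whose medians on the AICAR arrays were 0.02, 0.07 and 0.14. Of these 266 genes, 2 were higher (0.752%), or 42 without AICAR replicate 1, and 3 lower (1.13%). Olfactory and vomeronasal receptor genes, which Leydig cells are not known to use, had 5 higher (0.419%) and 7 lower (0.587%) of 1192. Without AICAR replicate 1, 84 of them were higher.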

How the data were processed

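Total RNA of MA-10 cells was measured on 9 Affymetrix whole-transcript arrays. The deposited values are log2 summaries, made with RMA and Partek (no versions) per the submitters' processing notes. The genome build is not given in the sources used here. Array medians ran from 7.14 to 7.19. Of 35557 probes, 21789 carried 1 gene symbol in GEO's platform annotation, and for the 999 genes with several such probes the one with the highest mean was used. Arrays were fitted together in limma 3.58.1 (R 4.3.3, lmFit and eBayes), with no filter on dim probes, as forskolin plus AICAR minus forskolin, two-sided. The fit was tested on simulated data. Symbols, spans, gene order and sequences came from RefSeq (GRCm38.p6). Named genes were the 20 largest rises and 20 largest falls among called genes without overlap between arrays, up to 4 called members per class (or, with none called, that of smallest p) and 5 reference genes, with predicted, olfactory and histone genes only counted. Classes, members and lists were chosen with earlier results of these data known. The number of arrays limits the precision. Alternatives were other normalizations, level filters, prior, array weights, probe averaging, the replicate block, 2 groups only and leaving out each array. Figures used Python 3.11.15 and matplotlib 3.10.9.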

Additional observations from a re-analysis of the deposited data

How the results depend on the processing

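Of 1017 genes called, the count was within 1.5 times under level filters, probe averaging, median centring, quantile normalization and a trended robust prior (1039 to 1273). It was 496 with the 2 groups alone (50 higher, 446 lower) and 5729 with array weights (3075 higher, 2654 lower). Leaving out 1 array gave 487 to 3324 calls, with 62 to 1677 higher and 425 to 1647 lower. Quantile normalization called 389 higher, 33.7% of its calls beside 19.2%. Calls of at least 1.5-fold stayed between 103 and 182 under every alternative, beside 132. Same-numbered forskolin and AICAR arrays did not deviate together (r of −0.41, 0.08 and −0.34). Control and AICAR arrays gave r of −0.368, 0.012 and −0.4, and control and forskolin arrays 0.244, 0.013 and 0.329. Array-wide differences also enter these values, so they cannot tell whether the numbers pair the samples. With the number as a block, 583 genes were called, 66 higher and 517 lower. Of 271 named genes, 138 of 264 called ones kept their call when any 1 array was left out. Mir99ahg reversed to −0.11 with the mean of its probes, which disagree.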
